A study of Mus musculus with 4 samples.

Results

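The nucleic acid sensing and type I interferon genes Trex1, Ddx58, Ifih1, Zbp1, Irf3, Irf7, Tbk1, Mavs, Samhd1 and Ifnb1 were followed through the cells of LLC tumors with and without hypofractionated radiotherapy. The 10 genes were matched by symbol, and 9 of them were among the 18596 genes common to the tables of all 4 libraries. Trex1 was listed at 0 UMIs in NT, RT1 and RT3 and could not be read in RT2, so it is named here without a level. In the GENCODE annotation of GRCm38, all 1147 exon bases of Trex1 lie in exons of Atrip on the same strand, and Atrip had 200, 193, 413 and 207 UMIs in NT, RT1, RT2 and RT3. Whether this overlap bears on the 0 was not tested.

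LLC (Lewis lung carcinoma) is a mouse lung cancer cell line, grown here under the skin of C57BL/6N mice (C57/BL6N in the sample labels) aged 6 to 8 weeks. The radiotherapy (RT) group was 3 tumors, sequenced as 1 library each and called RT1 to RT3, given 24 Gy as 3 fractions of 8 Gy on days 7 to 9 after injection, when tumors measured about 100 mm3. The radiation naive control (NT) was 1 library made of 3 mock-treated tumors pooled. All tumors were taken 72 h after radiation, so each value is a single time point of subcutaneous tumors of 1 cell line. NT has no replicate, and NT and RT are therefore compared by levels and ratios without a test, whereas cell types were compared over all 4 libraries. Where 3 values follow a value for NT, they are RT1, RT2 and RT3 in that order.

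Nucleic acids in the wrong compartment are read as a danger signal. The helicases RIG-I, encoded by Ddx58, and MDA5, encoded by Ifih1, bind double-stranded RNA in the cytosol and signal through the mitochondrial adaptor MAVS, and ZBP1 binds left-handed nucleic acids and can start inflammatory cell death. The kinase TBK1 phosphorylates the transcription factor IRF3, and IRF3 and IRF7 switch on type I interferon, of which Ifnb1 encodes interferon beta. The exonuclease TREX1 removes stray DNA and SAMHD1 breaks down deoxynucleotides, and both keep sensing in check. Secreted interferon acts through its receptor on many cells and induces antiviral genes, among them several of the sensors and IRF7 themselves. After radiation, DNA and RNA that escape from damaged tumor cells are a known route to such signaling.

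The promoters of Ifnb1, Ddx58, Ifih1 and Irf7 are printed because these genes carry the results below. Each is the 300 bases that run from 250 before to 50 after a transcription start, from RefSeq on GRCm38.p6, printed along the gene's own strand, which is the minus strand for all 4. A window was matched for 9 of the 10 genes. A pair of short motifs was searched on both strands. One is GAAA followed by any 2 bases and GAAA again, a core of the interferon-stimulated response element, called the double motif here. The other is AANNGAAA (TTTCNNTT on the other strand), a core bound by interferon regulatory factors, which is contained in the first. Capitals mark every base of a match.
Ifnb1, chr4:88522745-88523044: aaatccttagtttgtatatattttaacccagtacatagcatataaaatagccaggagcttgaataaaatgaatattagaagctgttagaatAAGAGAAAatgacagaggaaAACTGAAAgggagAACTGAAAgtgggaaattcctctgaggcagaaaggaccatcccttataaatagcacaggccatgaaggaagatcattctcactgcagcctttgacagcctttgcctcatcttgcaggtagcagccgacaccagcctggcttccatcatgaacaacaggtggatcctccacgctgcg
Ddx58, chr4:40239776-40240075: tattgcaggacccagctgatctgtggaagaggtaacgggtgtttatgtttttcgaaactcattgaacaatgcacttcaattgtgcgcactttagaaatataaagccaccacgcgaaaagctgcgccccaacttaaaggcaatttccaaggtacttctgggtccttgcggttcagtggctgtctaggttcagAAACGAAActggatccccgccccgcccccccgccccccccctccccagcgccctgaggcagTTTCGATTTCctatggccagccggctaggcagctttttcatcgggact
Ifih1, chr2:62646206-62646505: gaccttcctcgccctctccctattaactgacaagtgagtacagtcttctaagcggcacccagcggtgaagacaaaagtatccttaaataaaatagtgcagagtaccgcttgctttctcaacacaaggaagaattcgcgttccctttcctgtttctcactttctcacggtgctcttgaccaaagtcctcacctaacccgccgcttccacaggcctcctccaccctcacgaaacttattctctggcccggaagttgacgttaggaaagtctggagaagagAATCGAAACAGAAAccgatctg
Irf7, chr7:141266375-141266674: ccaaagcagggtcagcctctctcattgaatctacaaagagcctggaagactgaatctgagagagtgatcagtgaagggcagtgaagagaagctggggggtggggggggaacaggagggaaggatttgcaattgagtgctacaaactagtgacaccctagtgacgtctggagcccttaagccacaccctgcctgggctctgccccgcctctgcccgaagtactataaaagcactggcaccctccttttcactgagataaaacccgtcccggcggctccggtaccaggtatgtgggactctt

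The Ifnb1 window held 3 matches to AANNGAAA, at 159, 139 and 126 bases before the start, and no match to the double motif. The Ddx58 window held a match to AANNGAAA at 59 bases before the start and a match to the double motif on the other strand from base 3 after it, and the Ifih1 window held both motifs within bases 29 to 42 after the start. No match was found in these windows of Irf7, Irf3, Mavs, Tbk1, Samhd1 or Trex1. Of 32851 promoters of the same length, 3.44% held the double motif and 23.9% held AANNGAAA. These are matches of letters and were not tested as binding sites.

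On GRCm38, the genes lie at chr4:40203773-40239828 (Ddx58), chr2:62595798-62646255 (Ifih1), chr2:173206612-173218923 (Zbp1), chr2:131234063-131248025 (Mavs), chr10:121546455-121586787 (Tbk1), chr7:44997648-45002848 (Irf3), chr7:141262706-141266481 (Irf7), chr2:157097533-157135265 (Samhd1), chr4:88522025-88522774 (Ifnb1, a single exon) and chr9:109057933-109059734 (Trex1). The submitters' processing notes name GRCm39 and the tables give no coordinates, so these positions locate the genes only. Exons of Irf3 share 88 of 3442 bases with Bcl2l12 on the opposite strand, and those of Irf7 share 45 of 3776 with Phrf1, also opposite.

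After filtering, 9976 cells of NT, 15029 of RT1, 14993 of RT2 and 15060 of RT3 were kept, with median UMIs (unique molecular identifiers, which count RNA molecules) per cell of 5709, 3865, 5200 and 4158. The table of RT2 stood apart before any filter, with 18605 gene symbols against 32245 and no barcode above 11.95% mitochondrial UMIs against up to 92.6%, 91.5% and 97.0% in NT, RT1 and RT3. Pairs of libraries shared 182 to 277 cell barcodes. Clusters were named from marker genes, which gave 6348, 6635, 6200 and 7925 tumor cells in NT, RT1, RT2 and RT3, 773, 2972, 2897 and 1752 macrophages, and 550, 1944, 2110 and 1915 monocytes. Dendritic cells, lymphocytes, neutrophils, fibroblasts and endothelial cells were fewer, with 20 fibroblasts and 21 neutrophils in NT. Each class held all of its own markers in every library, and Siglech, a marker of plasmacytoid dendritic cells, the professional interferon producers, had 0, 2, 4 and 4 UMIs, so no such cells were named.

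RNA of tumor cells was also read in other types. Levels are given in CPM, the UMIs of a gene scaled to a total of 1000000 UMIs for a cell type in a library. The 6 tumor markers summed to 2329 to 2378 CPM in tumor cells, with Rhox5 the most abundant. In macrophages they summed to 422 CPM in NT and 599, 535 and 799 CPM in RT, in monocytes to 158 to 261 CPM, and in neutrophils to 1107 to 1489 CPM, with Krt7 and Prl2c3 at 0 to 3 UMIs in each of these types. Among macrophages most of it lay in a single cluster, cluster 8, where Rhox5 was at 640.4 CPM in NT and 929, 796 and 909.6 CPM in RT, beside 1057 to 1292 CPM in tumor cells. Without cluster 8, Rhox5 in macrophages was at 31.2 CPM in NT and 53.4 ± 8.94 CPM (SD, n = 3) in RT. The part of this RNA in the levels below was not tested. RT over NT in macrophages was also read without cluster 8 for the 9 genes, and values whose call changes are given both ways. Comparisons of cell types and other pathway genes were not run without cluster 8.

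By edgeR with TMM scaling, macrophages, monocytes and dendritic cells had higher levels of these genes than tumor cells, with the exception of Mavs. In macrophages, 8 of the 9 genes were higher than in tumor cells and none was lower by edgeR's quasi-likelihood test with Benjamini-Hochberg adjustment, beside 34.9% higher and 39.4% lower of all 9911 genes tested, 74.3% in either direction. The median log2 difference of the 9 genes was 2.17, beside -0.07 over all genes tested. In monocytes 8 were higher and Mavs was lower, beside 39.8% higher and 38.4% lower. In dendritic cells 8 were higher and Mavs was lower, beside 30.8% and 30.7%, and Irf3 and Tbk1 lost their calls without RT1 (adjusted p = 0.202 and 0.0537 by edgeR) and with library sizes alone (0.0791 and 0.219). Of the thinner types, lymphocytes had 7 of the 9 genes higher and Mavs lower, beside 59.2% of all genes in either direction. There Ifnb1 lost its call without RT1 (adjusted p = 0.147 by edgeR) or RT3 (0.0975), and Samhd1 without RT1 (0.0740). Fibroblasts had 6 higher (27.2% of all genes) and Mavs lower, beside 49.8% in either direction. Endothelial cells had 6 higher (27.3%) and Mavs lower, beside 51.8%, and neutrophils had 6 higher and none lower, beside 32.5%. In neutrophils Tbk1 lost its call without RT1, RT2 or RT3 (adjusted p = 0.0664, 0.0622 and 0.301 by edgeR), with library sizes alone (0.0890) and with no filter (0.114), and Mavs was lower with library sizes alone (-0.79, adjusted p = 0.0165 by edgeR). In endothelial cells Tbk1 lost its call without RT1, RT2 or RT3 (adjusted p = 0.119, 0.236 and 0.0701 by edgeR), and Irf3 without RT1 or RT2 (0.0757 and 0.376). Types were compared within libraries (n = 4), and clusters were built without the 9 genes. With library sizes alone in place of TMM scaling, the median of all genes in macrophages against tumor cells moved from -0.07 to -0.42 and higher genes made up 32.02% instead of 46.96% of all calls, so these differences are relative to the scaling.

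The sensors differed in how widely they were expressed. Ifih1, which encodes MDA5, was at 98.9 ± 44.1 CPM (SD, n = 4 libraries) in monocytes, 89.7 ± 14.4 CPM in dendritic cells and 87.5 ± 39.5 CPM in macrophages, levels within each other's spread, and at 7.77 ± 1.07 CPM in tumor cells. Its log2 difference between macrophages and tumor cells was 3.73 ± 0.20 (SE), adjusted p = 2.4e-17 by edgeR. Ddx58, which encodes RIG-I, was spread more evenly, from 32.1 ± 1.21 CPM in tumor cells through 47.5 ± 10.2 CPM in macrophages and 72.8 ± 16.3 CPM in monocytes to 75.02 ± 36.1 CPM in neutrophils, and the difference between macrophages and tumor cells was 0.92 ± 0.12 (SE), adjusted p = 3.7e-08 by edgeR.

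Zbp1 was at 13.9 ± 9.73 CPM (SD, n = 4) in tumor cells, 98.96 ± 33.03 CPM in macrophages, 181 ± 45.7 CPM in fibroblasts and 234 ± 81.5 CPM in monocytes. Tumor cells were thus the lowest type, and the neighbors from lymphocytes to fibroblasts lay within each other's spread. The log2 difference from tumor cells was 3.31 ± 0.17 (SE), adjusted p = 3.5e-18 for macrophages, and 4.72 ± 0.18 (SE), adjusted p = 7.6e-22 for monocytes, both by edgeR.

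The adaptor and the kinase below the sensors were read in all types. In neutrophils, where the tumor markers were also read, Mavs rests on 28 UMIs. Mavs was the single gene of the 9 with its highest mean in tumor cells, at 40.8 ± 10.2 CPM (SD, n = 4), beside 32.8 ± 10.3 CPM in macrophages and 15.9 ± 10.7 CPM in dendritic cells. Macrophages did not pass the test against tumor cells (0.04 ± 0.11 (SE), adjusted p = 0.744 by edgeR), and with library sizes alone Mavs was lower in them by edgeR (-0.32, adjusted p = 0.00996). It was lower than in tumor cells in monocytes (-0.63 ± 0.14 (SE), adjusted p = 1.1e-04 by edgeR), dendritic cells (-0.88), lymphocytes (-0.55), fibroblasts (-0.83) and endothelial cells (-0.64). The call in fibroblasts was lost without RT3 (adjusted p = 0.0887 by edgeR). That in endothelial cells rests on 32 UMIs and was lost without RT1 (adjusted p = 0.231 by edgeR) or RT2 (0.383). Tbk1, the kinase, ranged from 31.05 ± 8.02 CPM in fibroblasts to 77.3 ± 20.1 CPM in monocytes, and macrophages were above tumor cells by 0.93 ± 0.11 (SE), adjusted p = 3.0e-09 by edgeR.

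The transcription factors had different patterns. Irf7 was at 5.08 ± 2.79 CPM (SD, n = 4) in tumor cells and at 71.9 ± 26.97 CPM in monocytes, 71.02 ± 26.04 CPM in endothelial cells, 63.1 ± 28.2 CPM in fibroblasts and 57.3 ± 29.1 CPM in macrophages, the last 4 within each other's spread. Its log2 difference between macrophages and tumor cells was 3.86 ± 0.15 (SE), adjusted p = 1.1e-21 by edgeR. Irf3 was low throughout, from 8.22 ± 2.85 CPM in tumor cells to 17.9 ± 8.10 CPM in fibroblasts, and macrophages were above tumor cells by 1.03 ± 0.17 (SE), adjusted p = 1.4e-06 by edgeR.

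Samhd1, which limits deoxynucleotides in myeloid cells, had its highest means in myeloid types. It was at 566 ± 146 CPM (SD, n = 4) in dendritic cells, 549 ± 134 CPM in monocytes, 429 ± 197 CPM in neutrophils, 285 ± 52.9 CPM in macrophages and 80.1 ± 9.07 CPM in tumor cells. Macrophages exceeded tumor cells by 2.17 ± 0.15 (SE), adjusted p = 2.9e-14, and monocytes exceeded macrophages by 1.12 ± 0.15 (SE), adjusted p = 3.1e-07, both by edgeR. Ifnb1 was at 81.3 ± 83.5 CPM in macrophages, 36.99 ± 17.8 CPM in dendritic cells, 28.3 ± 31.4 CPM in monocytes and 0.858 ± 0.0799 CPM in tumor cells, and had 0 UMIs in fibroblasts of every library. Macrophages exceeded tumor cells by 6.38 ± 0.44 (SE), adjusted p = 6.8e-14 by edgeR, although the SD over libraries was as large as the macrophage mean.

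**Figure D1:**
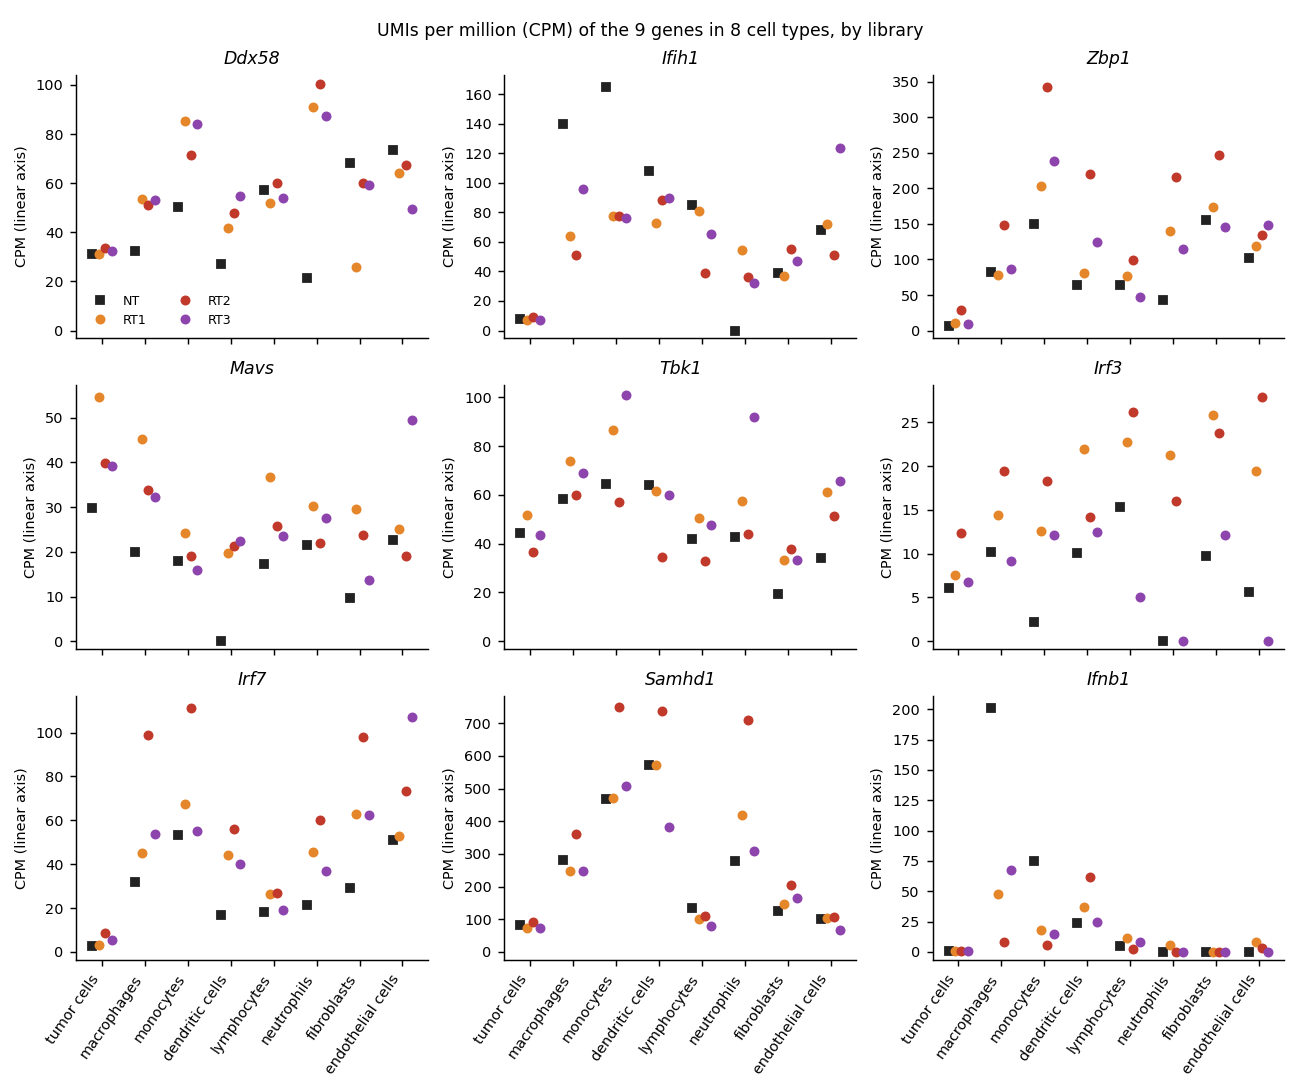
Level of each of the 9 genes in CPM (linear axis, scaled per gene) in 8 cell types, with NT as black squares and RT1, RT2 and RT3 as circles. By mean, tumor cells are lowest for Ddx58, Ifih1, Zbp1, Irf3, Irf7 and Samhd1 and highest for Mavs, and Ifnb1 in macrophages reaches 201 CPM in NT against 8.35 to 67.8 CPM in RT.

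Monocytes and macrophages, the 2 largest myeloid types, were also compared with each other. Monocytes were higher for 5 of the 9 genes and lower for 2, beside 49.2% of all genes tested in either direction. Zbp1 (1.42 ± 0.16 (SE), adjusted p = 1.7e-08), Samhd1 and Ddx58 (0.79 ± 0.13 (SE), adjusted p = 8.0e-06) were higher by edgeR, and kept this call under every alternative that was run. Irf7 (0.51, adjusted p = 0.00457) and Tbk1 (0.39, adjusted p = 0.00639) were higher and Ifnb1 (-1.33, adjusted p = 0.00966) was lower by edgeR, and these 3 lost their calls without RT1 (adjusted p = 0.0709, 0.0666 and 0.0666), Tbk1 and Ifnb1 also without RT3 (0.147 and 0.1005). Irf7 and Ifnb1 lost them with DESeq2 (adjusted p = 0.0541 and 0.0921), Irf7 and Tbk1 with library sizes alone (0.0517 and 0.110 by edgeR), and Tbk1 without doublets (0.802) and without integration (0.0525). Mavs was lower (-0.67 ± 0.14 (SE), adjusted p = 2.2e-04 by edgeR). Without the library as a block 3 of the 9 genes passed, and without the cells of highest doublet score the difference of Irf7 was -0.07.

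Of 84 further pathway genes in 8 lists, most of those tested were also higher in macrophages than in tumor cells, beside the 34.9% of all genes that were higher and the 74.3% called in either direction. The DNA sensing list had 7 of 7 genes higher in macrophages than in tumor cells by edgeR, among them the inflammasome adaptor Pycard (a log2 difference of 8.16), the DNA sensor Cgas (1.94) and Ifi204 (1.81), with a median of 1.16 beside -0.07 over all genes. Of 9 RNA sensing genes 6 were higher (median 0.95), among them the RIG-I-like receptor Dhx58 (3.82) and the ubiquitin ligase Trim25 (2.12), and the helicase Dhx9 was lower (-0.45). All 6 endosomal Toll-like receptor genes tested were higher (median 3.06), among them the chaperone Unc93b1 (4.06) and the double-stranded RNA receptor Tlr3 (2.05). Tlr7 and Tlr13 had at most 10 UMIs in the tumor cells of any library, and their macrophages stood at 16.9 to 34.6 CPM. Of 9 nucleases 6 were higher (median 1.87), led by the lysosomal exonuclease Pld4 (8.50) and the secreted DNase Dnase1l3 (5.79). The lower nucleases were the ribonuclease H2 subunits Rnaseh2a (-0.92) and Rnaseh2c (-0.52), which are named after their values were seen.

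Below the sensors, 5 of 9 kinases, adaptors and factors were higher in macrophages than in tumor cells (median 0.56), beside 34.9% of all genes, led by the transcription factors Irf5 (6.03) and Irf8 (5.90) and the kinase Ikbke (3.08). Of the receptor signaling genes 8 of 10 were higher (median 1.39), among them the phosphatase Ptpn6 (4.46) and the receptor chain Ifnar1 (1.83). Of 23 interferon-induced genes tested 21 were higher and none was lower (median 2.24), led by Slfn5 (5.79) and Oasl1 (4.38). Of the ligands besides Ifnb1, Ifna2 and Ifng were tested, and both were called higher from few UMIs, 79, 34, 9 and 23 UMIs of Ifna2 and 1 to 3 UMIs of Ifng in the macrophages of a library. Ifna2, the pair Ifit3 and Ifit3b and the Oas genes have near-identical relatives that can share reads, and their separate values are uncertain.

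The same genes were then compared between NT and RT, the contrast of the study, which asks how radiotherapy changed the tumor and its immune cells. A gene was taken as past the rule where its log2 ratio to NT was at least 0.5 in the same direction in each of RT1, RT2 and RT3. In macrophages, Ddx58, Irf7 and Mavs were higher and Ifih1 and Ifnb1 were lower by this rule, 5 of the 9 genes, beside 11.5% higher and 5.70% lower of 11599 genes. In monocytes, Irf3 was higher and Ifih1 and Ifnb1 were lower, 3 of the 9 genes, beside 15.7% higher and 5.75% lower of 9391 genes. In tumor cells Zbp1 was past the rule, 1 of the 9 genes, beside 9.97% higher and 1.72% lower of 13167 genes. None of the genes tested was lower in the smaller types. Of all genes, 353 of 5692 were lower in dendritic cells, 570 of 8479 in lymphocytes and 815 of 3883 in neutrophils. In fibroblasts 782 of 5416 were lower and in endothelial cells 373 of 4770. Of those tested, 2 of 7 were higher in dendritic cells (Ddx58 and Irf7), beside 565 of 5692 genes. In fibroblasts 1 of 6 was higher (Irf7, from 3 UMIs in NT), beside 1023 of 5416. In endothelial cells 1 of 6 was (Tbk1, from 6 UMIs in NT), beside 563 of 4770. The NT interval held RT1 and RT3 for Irf7 in fibroblasts and every RT library for Tbk1 in endothelial cells. In neutrophils 3 of 6 were higher (Ddx58, Ifih1 and Zbp1, from 0 to 2 UMIs in NT), beside 662 of 3883. The NT interval there reached 119.6 CPM for Ddx58 and 79.2 CPM for Ifih1 and held every RT library for both. For Zbp1 it held RT1 and RT3. With so few UMIs in NT, these neutrophil calls cannot show whether Ddx58 and Ifih1 differed from NT. In lymphocytes 0 of 8 were higher, beside 594 of 8479. The median log2 ratios of the 9 genes were 0.28, 0.28 and 0.06 in macrophages, monocytes and tumor cells, beside 0.03, 0.12 and -0.01 over all genes. For RT1, RT2 and RT3 apart, the medians were 0.34, 0.66 and 0.07 in macrophages and 0.41, 0.49 and 0.11 in monocytes. In tumor cells they were 0.22, 0.32 and 0.15, so RT2 was the highest in each type. All ratios share the same NT library, so a deviation of NT enters each of them.

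Ifnb1, the ligand, had the lowest ratio of the 9 genes in macrophages and monocytes. In macrophages it was at 201 CPM in NT and 48.01, 8.35 and 67.8 CPM in RT, with an exact Poisson 95% interval of 186 to 217 CPM for NT, which like all such intervals here covers counting error only. Every RT library lay below that interval, RT2 the lowest. The mean log2 ratio was -2.74 ± 1.62 (SD, n = 3), and -1.82 without RT2. In monocytes Ifnb1 was at 74.7 CPM in NT and 18.1, 5.85 and 14.5 CPM in RT from 67 UMIs of 15 cells in NT, of which 1 cell held 16. Every RT library was again below NT, and the mean log2 ratio was -2.69 ± 0.86 (SD, n = 3), and -1.82 with clusters at resolution 0.4. Monocytes also differed in H2-Ab1, an antigen presentation gene, which was at 5385 CPM in NT and 1164, 1422 and 804 CPM in RT, and its part in the ratios of Ifnb1 and Ifih1 in monocytes was not tested. Dendritic cells did not show this order, at 23.6 CPM in NT and 37.4, 62.001 and 24.9 CPM in RT from 7 UMIs in NT. Tumor cells were at 0.829 CPM in NT and 0.867, 0.772 and 0.962 CPM in RT, and the NT interval of 0.607 to 1.11 CPM held all 3 RT values.

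The order of NT and RT for Ifnb1 was the same in each macrophage cluster. In the largest, cluster 4, it was at 270.0 CPM in NT and 62.3, 11.4 and 108 CPM in RT. In cluster 16 it was at 115 CPM in NT and 37.7, 6.37 and 76.02 CPM in RT, and in cluster 8 at 51.8 CPM in NT and 18.3, 1.77 and 8.85 CPM in RT. Each RT value lay below that of NT, and the clusters share the same NT library. Over all kept cells Ifnb1 was at 11.2 CPM in NT and 9.20, 2.88 and 6.93 CPM in RT, while macrophages were 7.75% of kept cells in NT and 19.8%, 19.3% and 11.6% in RT. Macrophages also differed in other markers, with the complement gene C1qb at 1516 CPM in NT and 3004, 3911 and 2532 CPM in RT and the monocyte gene Ly6c2 at 25.2 CPM in NT and 55.7, 94.8 and 168 CPM in RT, and H2-Ab1 at 4764 CPM in NT and 634, 1280.2 and 1170 CPM in RT in cluster 4 and at 1800.1 CPM in NT and 252, 495 and 318 CPM in RT in cluster 8. H2-Ab1 was thus lower in every RT library, as Ifnb1 and Ifih1 were, and the part of such shifts in the ratios was not tested.

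The RNA sensors Ifih1 and Ddx58 differed from NT in opposite directions in macrophages and monocytes. Ifih1 in macrophages was at 139.7 CPM in NT and 63.7, 51.1 and 95.7 CPM in RT, all below the NT interval of 127 to 153 CPM, with a mean log2 ratio of -1.04 ± 0.46 (SD, n = 3). Without cluster 8 it was at 164 CPM in NT and 76.3, 60.8 and 131 CPM in RT, and RT3 no longer met the rule. In cluster 16 Ifih1 was at 95.4 CPM in NT and 46.4, 59.9 and 107 CPM in RT, from 16 to 47 UMIs, with RT3 above NT. In monocytes Ifih1 was at 165 CPM in NT and 77.2, 77.4 and 76.04 CPM in RT, so that the RT libraries nearly coincided below the NT interval of 139.5 to 194 CPM, with a ratio of -1.10 ± 0.01 (SD, n = 3). With cell types taken from each cell's own marker score, the mean ratio was -0.51 and Ifih1 did not meet the rule in monocytes. Ddx58 in macrophages was at 32.3 CPM in NT and 53.4, 51.1 and 53.3 CPM in RT, or 52.6 ± 1.29 CPM (SD, n = 3) in RT, all above the NT interval of 26.4 to 39.1 CPM, with a ratio of 0.70 ± 0.04 (SD, n = 3). In monocytes Ddx58 was at 50.2 CPM in NT and 85.4, 71.4 and 83.99 CPM in RT, with log2 ratios of 0.75, 0.49 and 0.73, of which that of RT2 fell just short of the rule. In tumor cells Ddx58 was at 31.1 CPM in NT and 31.3, 33.7 and 32.2 CPM in RT and Ifih1 at 7.48 CPM in NT and 7.14, 9.36 and 7.09 CPM in RT. Neither sensor differed from NT in tumor cells by as much as it did in macrophages in any RT library.

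Zbp1 was the gene past the rule in tumor cells. It was at 6.56 CPM in NT and 11.004, 28.2 and 9.83 CPM in RT, all above the NT interval of 5.91 to 7.27 CPM, with log2 ratios of 0.75, 2.10 and 0.58. RT2 lay well above the others, and the mean ratio was 1.14, or 0.66 without RT2. When clusters were built without integration or at resolution 0.4, the ratio was below 0.5 in at least 1 library, with means of 0.93 and 0.79. In 6 of the 7 tumor clusters, which share the same NT library, every RT library was above NT. The cluster with the highest level, cluster 9, was at 32.6 CPM in NT and 75.5, 98.4 and 51.8 CPM in RT. In macrophages Zbp1 was at 82.5 CPM in NT and 78.4, 148 and 86.8 CPM in RT, on both sides of NT. In monocytes it was at 151 CPM in NT and 203, 344 and 238 CPM in RT, with log2 ratios of 0.43, 1.19 and 0.66. RT2 was the highest library for Zbp1 in all 3 types.

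Macrophage markers in tumor cells were also higher in RT. The 9 markers summed to 5.66 CPM in NT and 32.8, 43.3 and 15.5 CPM in RT, with C1qb the most abundant and none at 0, beside 7521 to 13229 CPM in macrophages. Of these, C1qa, C1qb, C1qc, Mrc1, Adgre1, Csf1r, Ms4a7 and Folr2 in tumor cells were at most 0.432% of their macrophage level in any library. Zbp1 in tumor cells was at 7.96%, 14.0%, 19.0% and 11.3% of its macrophage level in NT, RT1, RT2 and RT3, and Irf7 at 8.31%, 7.22%, 8.88% and 10.5%. The part of macrophage RNA in the ratios of Zbp1 and Irf7 was not tested.

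Mavs, the adaptor of both helicases, was higher in every RT library of macrophages and tumor cells. In macrophages it was at 20.003 CPM in NT and 45.2, 33.9 and 32.2 CPM in RT, all above the NT interval of 15.4 to 25.5 CPM, with a mean log2 ratio of 0.87 ± 0.26 (SD, n = 3). In tumor cells it was at 29.7 CPM in NT and 54.5, 39.7 and 39.1 CPM in RT, with log2 ratios of 0.87, 0.42 and 0.39. RT2 and RT3 fell short of the rule there. In all 7 tumor clusters every RT library was above NT, but the clusters share the same NT library and are not separate evidence. In monocytes Mavs was at 17.8 CPM in NT and 24.3, 18.96 and 15.9 CPM in RT, on both sides of NT. Tbk1 was not past the rule, at 58.5 CPM in NT and 74.1, 60.2 and 68.9 CPM in RT in macrophages and 44.5 CPM in NT and 51.8, 36.6 and 43.7 CPM in RT in tumor cells, where RT1 was above NT and RT2 below it. In monocytes Tbk1 was at 64.7 CPM in NT and 86.6, 57.1 and 101 CPM in RT, on both sides of NT, and with cell types from each cell's own marker score it was past the rule there, with a mean log2 ratio of 0.93.

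Irf7, the factor that amplifies interferon production, was at 31.7 CPM in NT and 45.1, 98.9 and 53.6 CPM in RT in macrophages, all above the NT interval of 25.9 to 38.4 CPM, with log2 ratios of 0.50, 1.63 and 0.75. RT2 was the highest, and the mean ratio was 0.96, or 0.63 without RT2. RT1 barely met the rule and fell short of it when mitochondrial and ribosomal protein genes were left out of the totals. In tumor cells Irf7 was at 2.63 CPM in NT and 3.26, 8.78 and 5.63 CPM in RT, with log2 ratios of 0.31, 1.73 and 1.09, so that RT1 fell short of the rule. In monocytes it was at 53.5 CPM in NT and 67.6, 111 and 55.3 CPM in RT, where RT3 was close to NT.

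Irf3 in monocytes was at 2.23 CPM in NT and 12.6, 18.2 and 12.1 CPM in RT, but from 2 UMIs in NT. The ratios were 5.64 (95% counting interval 1.47 to 48.1), 8.18 (2.21 to 68.5) and 5.42 (1.39 to 46.6) for RT1, RT2 and RT3, so their size is poorly fixed. Their mean log2 ratio was 2.35. It was 1.44 with clusters at resolution 0.4, 1.66 without integration and 3.63 with cell types from each cell's own marker score. Irf3 was past the rule in each. In macrophages Irf3 was at 10.2 CPM in NT and 14.4, 19.4 and 9.21 CPM in RT, with RT3 below NT, and in tumor cells at 6.11 CPM in NT and 7.58, 12.4 and 6.78 CPM in RT. Samhd1 was at 283 CPM in NT and 248, 359.9 and 248 CPM in RT in macrophages and 83.2 CPM in NT and 73.2, 91.6 and 72.5 CPM in RT in tumor cells, on both sides of NT, and at 468 CPM in NT and 472, 749 and 507 CPM in RT in monocytes. RT2 was the highest library for Samhd1 in all 3 types, as it was for Zbp1, Irf3 and Irf7.

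**Figure D2:**
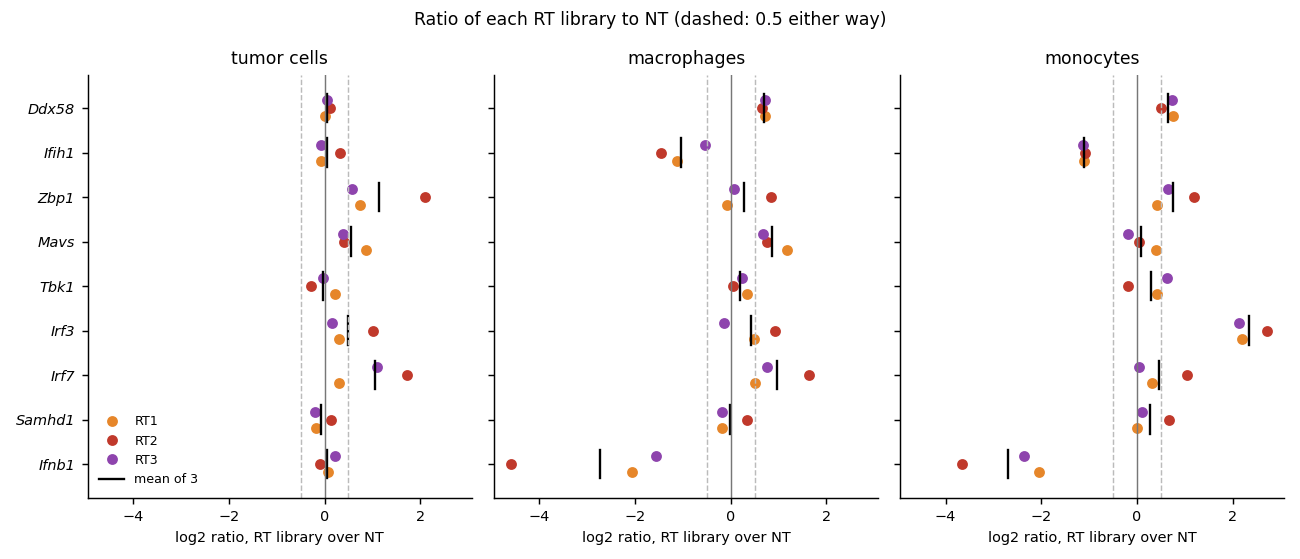
Log2 ratio of each RT library to NT for the 9 genes in tumor cells, macrophages and monocytes, with circles for RT1, RT2 and RT3, a black bar for their mean and dashed lines at 0.5 in either direction. Ifnb1 and Ifih1 lie left of the lower line in macrophages and monocytes in all 3 libraries, Zbp1 lies right of the upper line in tumor cells, and all ratios share the same NT library.

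The other pathway genes were read by the same rule. In tumor cells, 12 of 24 interferon-induced genes were higher and none was lower, beside 9.97% and 1.72% of all genes, with a median log2 ratio of 0.82 beside -0.01 over all genes. Oasl1, a relative of the oligoadenylate synthases, was at 2.51 CPM in NT and 13.2, 21.04 and 11.4 CPM in RT. Ifit1, which binds foreign RNA, was at 14.8 CPM in NT and 47.1, 81.1 and 53.7 CPM in RT. Their mean log2 ratios were 2.54 and 1.99, and those of Ifi27l2a, Ifi44, Ifit3 and Ifit3b were 2.12, 1.86, 1.72 and 1.49. The RNA editing enzyme Adar was at 18.05 CPM in NT and 53.4, 54.9 and 37.9 CPM in RT, with a mean log2 ratio of 1.41 ± 0.30 (SD, n = 3). Usp18, a brake on the interferon receptor, was at 3.88 CPM in NT and 9.66, 13.2 and 11.9 CPM in RT, and the kinase Ikbke at 5.14 CPM in NT and 11.4, 13.5 and 11.1 CPM in RT. Each of these was higher in all 3 RT libraries, by the rule that Ddx58 and Ifih1 did not pass in the same cells. Dhx58 (1.15), Ptpn6 (0.78), Pycard (1.27) and Pld4 (2.70) were past the rule too. Pycard was at 0.175%, 0.465%, 0.577% and 0.475% of its macrophage level in tumor cells of NT, RT1, RT2 and RT3 and Pld4 at 0.104%, 0.484%, 0.424% and 0.273%, shares close to those of the macrophage markers, which were higher in RT as well, and the part of macrophage RNA in these ratios was not tested. Ptpn6 and Dhx58 were at 3.93% to 11.2% of their macrophage levels.

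In macrophages the interferon-induced list was split, with 6 of 24 genes higher and 4 lower, beside 11.5% and 5.70% of all genes, and a median of 0.23 beside 0.03 over all genes. For RT1, RT2 and RT3 apart, the median of the list was 0.05, 0.40 and 0.04, beside 0.05, -0.02 and 0.08 over all genes. It was thus above that of all genes in RT2 only. Lower were the antiviral enzyme Rsad2, at 1199 CPM in NT and 370.2, 467 and 729 CPM in RT, and the chemokine Cxcl10, at 3273 CPM in NT and 1274, 1284 and 2147 CPM in RT. Ifit2 (-0.99) and, named after its value was seen, the ubiquitin-like modifier Isg15 (-0.88) were lower as well. Oas3, an oligoadenylate synthase (1.601), Slfn5 (1.02) and Xaf1 (0.92) were higher, with 3 further genes of the list. The DNA sensor Cgas was at 37.9 CPM in NT and 16.5, 18.7 and 17.2 CPM in RT, with a mean log2 ratio of -1.12 ± 0.09 (SD, n = 3), and the DNase Dnase1l3 at 36.9 CPM in NT and 7.90, 14.9 and 6.98 CPM in RT. Adar (0.87), Tlr3 (0.93), Pld4 (0.93) and Usp18 (0.82) were higher. Ifna2, an interferon alpha gene, was at 24.3 CPM in NT and 2.86, 0.515 and 3.42 CPM in RT, below NT in every RT library as Ifnb1 was. In lymphocytes Ifna2 was past the rule in the other direction, higher in RT, but from few UMIs in NT. The NT library held 86 UMIs of Ifna2 before filtering, of which its macrophages held 79, so the size of the lymphocyte ratio is poorly fixed.

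In monocytes, 5 of 24 interferon-induced genes were higher and 2 lower, near the 15.7% and 5.75% of all genes. They were led by Oas3 (1.78) and Xaf1 (1.37) on the higher side, with Rsad2 (-0.80) and Ifit2 (-0.71) the lower, and the median was 0.30 beside 0.12 over all genes. For RT1, RT2 and RT3 apart, this median was 0.15, 0.37 and 0.23, beside 0.16, 0.08 and 0.14 over all genes. Usp18 was at 32.3 CPM in NT and 69.3, 73.7 and 77.1 CPM in RT, and the mean log2 ratio was 1.19 for Adar, 1.18 for Ikbke, 1.44 for Pld4 and 0.98 for Pycard. Ifi204, Ifi203, Dnase2a, Azi2 and Tyk2 were higher by ratios of 0.58 to 0.92. Adar and Usp18 were past the rule in all 3 types, as was Pld4 at its low level in tumor cells, whereas the receptor chains Ifnar1 and Ifnar2 were past it in none. Of the smaller types, neutrophils had 11 of 19 interferon-induced genes higher and 1 lower, beside 662 and 815 of 3883 genes. NT held 21 neutrophils with 46591 UMIs, where 3 UMIs make 64.4 CPM, beside 217559 to 498647 UMIs in RT. Genes with few UMIs in NT were thus read there through their RT counts, and the part of this depth in the neutrophil counts was not tested. Fibroblasts had 8 of 20 higher, beside 1023 of 5416. Dendritic cells had 6 of 20, beside 565 of 5692, and lymphocytes 5 of 22, beside 594 of 8479. Endothelial cells had 5 of 19 higher and 1 lower, beside 563 and 373 of 4770.

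Interferon beta is known to be made by few cells at a time, so its UMIs were followed cell by cell. Ifnb1 was read in 133 of 773 NT macrophages, 17.2% (exact binomial 95% interval 14.6 to 20.1). It was read in 5.82% (5.01 to 6.72), 1.73% (1.28 to 2.27) and 6.11% (5.03 to 7.33) of macrophages in RT. These intervals cover counting error over the cells of a library and are no test of NT against RT. Each RT library had a lower share than NT. When each cell was thinned to 1000 UMIs, which left out 116 shallower macrophages of NT and 470, 397 and 302 of RT, the shares were 10.5% in NT and 3.16%, 0.640% and 3.79% in RT. Tumor cells, in which free RNA of other cells can be read, had 0.299% in NT and 0.271%, 0.403% and 0.252% in RT. Their median depth was 5989 to 8505 UMIs, deeper than the 2714 to 4706 UMIs of macrophages, and after thinning their shares were 0.0638% to 0.124%. Monocytes had 2.73% in NT and 1.59%, 0.521% and 1.10% in RT, and dendritic cells 5.61% in NT and 5.91%, 7.01% and 3.78% in RT. Monocytes of each RT library were thus below NT, from 15 cells with Ifnb1 in NT, and dendritic cells lay on both sides.

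A few macrophages held much of the Ifnb1 RNA. The 10 cells with the most held 35.8% of the macrophage Ifnb1 UMIs in NT and 25.7%, 52.7% and 36.6% in RT, and the highest single cell held 33 UMIs in NT and 20, 17 and 28 in RT. Macrophages in turn held 83.9% of the Ifnb1 UMIs of all kept cells in NT and 79.9%, 46.6% and 77.4% in RT, where dendritic cells of RT2 held 19.5%. The 42 to 60 Ifnb1 UMIs of tumor cells per library came from 18 to 25 cells, of which the 10 highest held 66.7% to 83.3%. Ifna2 was read in 15 macrophages of NT and in 15, 4 and 12 of RT.

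**Figure D3:**
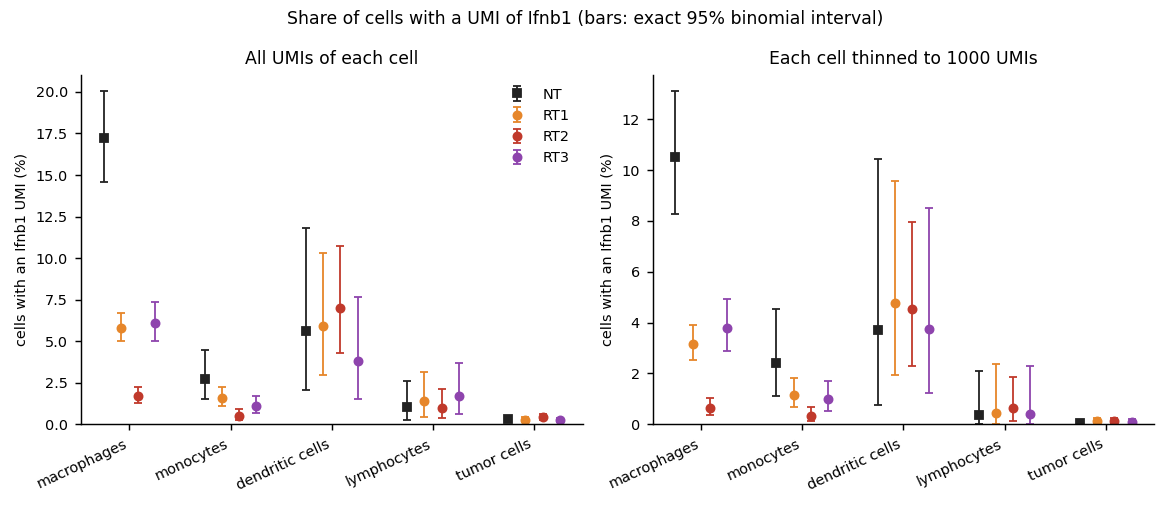
Percent of cells with a UMI of Ifnb1 by cell type and library, with all UMIs of each cell (left) and with each cell thinned to 1000 UMIs (right), and bars for the exact 95% binomial interval. NT macrophages stand at 17.2% before and 10.5% after thinning, above RT macrophages at 1.73% to 6.11% and 0.640% to 3.79%.

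Macrophages of at least 1000 UMIs with 2 or more Ifnb1 UMIs, 78 cells in NT and 98, 29 and 62 in RT, were set beside those with none. This is a description, since the cells were chosen on Ifnb1 and the genes named in this paragraph after their values were seen. Ifih1 was at 384 CPM against 99.3 CPM in NT, and its log2 ratios were 1.95, 1.58, 1.64 and 1.98 in NT, RT1, RT2 and RT3. In the same order of libraries the ratios were 3.69, 3.31, 2.85 and 3.30 for Ifit1, 2.95, 2.54, 2.85 and 2.68 for Rsad2, 3.21, 2.74, 2.16 and 2.53 for Ifit2 and 2.14, 2.71, 2.15 and 2.60 for Isg15. The cytokine genes Cxcl10 (1.63, 1.99, 2.42 and 2.12) and Tnf (2.03, 2.27, 2.14 and 2.85) were higher in these cells in every library too. Irf7 (0.74, 0.62, 0.14 and 0.52) and Samhd1 (0.03, 0.35, 0.33 and 0.38) differed by less, and Irf1 was lower (-0.69, -0.15, -0.30 and -0.52). The cells with Ifnb1 were deeper, with a median of 4202 UMIs against 3694 in NT and 4377 to 7130 against 3202 to 5398 in RT.

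**Figure D4:**
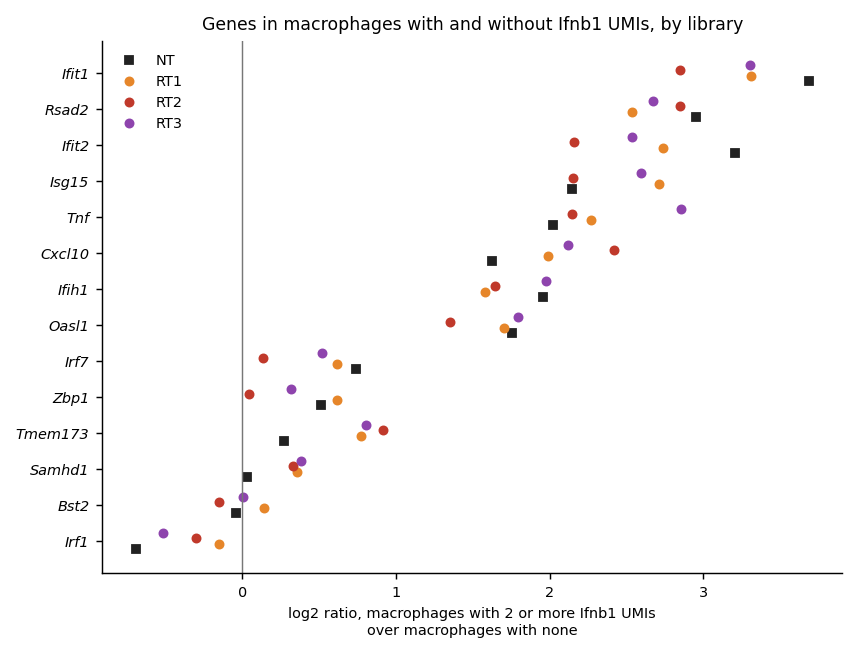
Log2 ratio of macrophages with 2 or more Ifnb1 UMIs to macrophages with none, per library, for pathway genes and Tnf, chosen after their values were seen. Ifit1, Rsad2 and Ifit2 lie between 2.16 and 3.69 in every library, Ifih1 between 1.58 and 1.98, and Irf1 between -0.69 and -0.15.

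The genes were also read across ranges of interferon-induced RNA. Each cell of at least 1000 UMIs was placed by its UMIs of the 24 interferon-induced genes per 10000, a score that holds none of the 9 genes. Cells with 20 or more, the top range, were set beside those with under 5, the bottom range. In tumor cells the log2 ratio was 4.13 ± 0.28 (SD, n = 4) for Irf7, 3.86 ± 0.25 for Zbp1, 2.39 ± 0.32 for Ifih1 and 2.15 ± 0.05 for Ddx58. Tbk1 (0.32 ± 0.15), Irf3 (0.45 ± 0.12) and Samhd1 (0.46 ± 0.17) differed by less, and Mavs was lower (-0.43 ± 0.19). In macrophages it was 2.81 ± 0.42 for Ifih1, 2.59 ± 0.58 for Irf7, 2.17 ± 0.27 for Zbp1, 1.86 ± 0.17 for Ddx58 and -0.38 ± 0.34 for Mavs. In monocytes it was 1.39 ± 0.04 for Samhd1, and 3.08 ± 0.35 for Ifih1, whose bottom range held 3 UMIs in NT and 12, 11 and 6 in RT. Irf7 had 0 UMIs in the bottom range of NT monocytes and 9, 15 and 6 in RT, where its log2 ratios were 3.47, 2.85 and 2.45. Ddx58, Ifih1 and Zbp1 had a ratio of at least 0.5 in every library in all 3 types, with UMIs in every bottom range. Beside them, 1.01% of the 8159 genes that were read in these cells and not part of the score did so. Irf7 and Ifnb1 also met this ratio, which makes 5 of the 9 genes. However, the bottom range held 0 UMIs of Irf7 in NT monocytes. It held 0 UMIs of Ifnb1 in monocytes of all libraries and in macrophages of NT, RT1 and RT2. Ratios there follow from the top range alone, so Irf7 and Ifnb1 are not read against the share of all genes. Ifnb1 rests on 0 to 5 UMIs in the bottom range, and in the bottom range of NT macrophages Irf7 and Ddx58 each had 4 UMIs. The count was 5 without NT as well. Tumor cells were shallower in the top range, with a median of 4962 to 7471 UMIs, than in the bottom range, with 6697 to 10825.

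Most Ifnb1 RNA lay in the top range. In macrophages it held 632 UMIs in NT and 547, 143 and 445 in RT, and the bottom range held 0 in NT and 0, 0 and 1 in RT. In tumor cells the top range held 37 UMIs in NT and 38, 47 and 56 in RT. The range between held 4 in NT and 3, 2 and 2 in RT, and the bottom range 5 in NT and 1, 2 and 2 in RT. The top range was 10.3% of tumor cells in NT and 13.0%, 23.8% and 16.2% in RT, 63.5% of macrophages in NT and 40.4%, 50.5% and 50.1% in RT, and 54.3% of monocytes in NT and 44.2%, 60.8% and 53.4% in RT. Tumor cells of every RT library were above NT and macrophages below it, and monocytes lay on both sides. Cxcl10 and Rsad2 held 70.5% of the score's UMIs in NT macrophages and 49.1%, 46.4% and 60.6% in RT. Without these genes in the score, an alternative chosen after seeing the data, the top range was 32.7% of macrophages in NT and 25.9%, 33.1% and 29.0% in RT, so RT2 was no longer below NT. Monocytes were then at 31.99% in NT and 35.9%, 49.6% and 41.5% in RT, and tumor cells at 3.11% in NT and 5.78%, 10.9% and 7.05% in RT, above NT in every RT library.

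Within the top range of macrophages, Ifnb1 was at 336 CPM in NT against 17.2 to 148 CPM in RT. Ifih1 was at 209 CPM in NT against 82.3 to 179.9 CPM in RT. Irf7 was at 45.7 CPM in NT against 86.5 to 163 CPM in RT, Ddx58 at 39.8 CPM in NT against 74.1 to 86.6 CPM in RT and Zbp1 at 105 CPM in NT against 136 to 225 CPM in RT. NT was thus above every RT library for Ifnb1 and Ifih1 and below every RT library for Irf7 and Ddx58, the order seen over all macrophages. Within the top range of tumor cells Ddx58 was at 85.6 CPM in NT against 75.2 to 83.9 CPM in RT and Zbp1 at 29.9 CPM in NT against 40.9 to 78.1 CPM in RT.

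**Figure D5:**
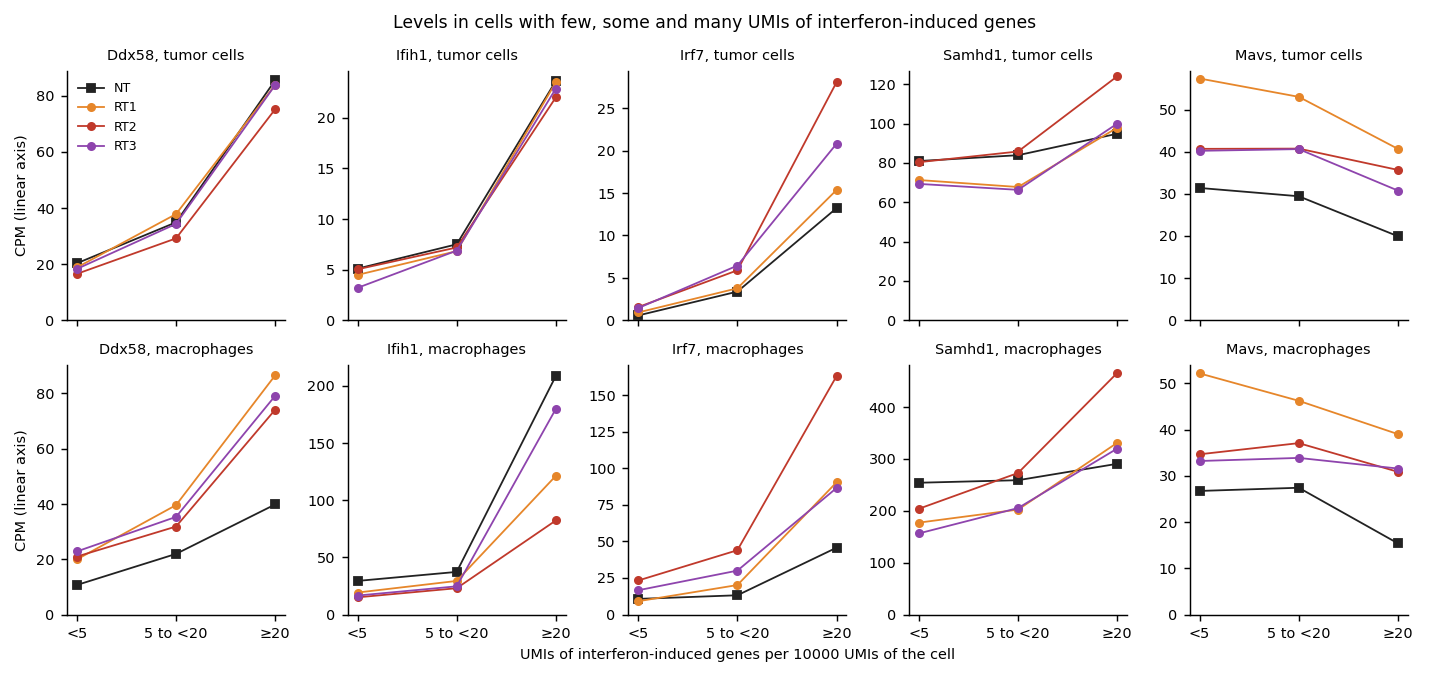
CPM (linear axis) of Ddx58, Ifih1, Irf7, Samhd1 and Mavs in tumor cells (top) and macrophages (bottom) with under 5, 5 to under 20, and 20 or more UMIs of interferon-induced genes per 10000. Ddx58, Ifih1 and Irf7 are higher in each next range in all 4 libraries, Mavs is lower in the top than in the bottom range, and in top-range macrophages NT is above RT for Ifih1 and below RT for Ddx58 and Irf7.

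The genes most like Irf7, Samhd1 and Irf3 were sought over the 32 sums of cell types and libraries, by Pearson's r of log2(CPM + 1) among 8487 genes. The sums share libraries and depth, so r is a description. Irf7 was most like Zbp1 (r = 0.93), followed by Slfn5 (0.92), Icam1 (0.88), Scamp1 (0.88) and Egr1 (0.87). Samhd1 was most like Plbd1 (0.93), Gpr35 (0.93), Cd300a (0.91), Slc15a3 (0.91) and Rasgrp4 (0.91). For Irf3, which was low in all types, the highest were Zfp386 (0.81), Hectd4 (0.81), Ing4 (0.81), Nrf1 (0.80) and Pxmp4 (0.79). Among the 9 genes, r with Mavs was -0.38 to 0.09, and Ifnb1 was most like Ifih1 (0.56).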

How the data were processed

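Tumors were dissociated and sequenced as SeekOne MM 3′ single-cell libraries on a NovaSeq instrument, and the authors deposited UMI counts per gene and barcode, as whole numbers and without normalization, made with SeekOne Tools. The submitters' processing notes name STAR 2.5.1b, featureCounts, Subread 1.6.4, Cell Ranger and the builds GRCm39 and mm39. The 4 libraries held 69667759 (NT), 78585759, 108699844 and 85660188 (RT1, RT2 and RT3) UMIs in 10141, 15346, 14994 and 15324 barcodes. The table of RT2 listed 18605 gene symbols and the others 32245, and 0.0045% to 0.0072% of UMIs lay outside the 18596 symbols in common. These were left out. The files held 0 columns of other samples.

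Filtering kept barcodes in which 200 genes or more were read and mitochondrial UMIs made up 20% or less. After scaling to 10000 UMIs, 30 principal components of 2000 variable genes, with the pathway, mitochondrial and ribosomal protein genes left out, were integrated by a rewritten Harmony (theta 2, lambda 1, sigma 0.1, in Python 3.11.15 with scikit-learn 1.9.0) and clustered by leidenalg 0.10.2 at resolution 0.8 on a graph of 20 neighbors. Doublets were not removed in the values reported. Clusters were named from markers reaching 20 CPM, by a rule settled after the clusterings were seen, and clusters 3, 7 and 15 stayed unnamed. NT is 1 library, so RT over NT has no test. Ratios used UMIs with 0.5 added, genes with a mean of at least 10 UMIs over the libraries were read, and a gene was past the rule at a log2 ratio of at least 0.5 in the same direction in every RT library. In Poisson counts simulated for macrophages this rule recovered 200 of 200 genes changed 2-fold and called 541 of 11399 others. The changed genes were drawn only from those with more UMIs expected in NT than the filter asks for, and no variation between tumors was simulated. Recovery of genes with few UMIs in NT and calls that come from differences between tumors were thus not covered.

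Cell types with at least 20 cells in every library were compared with edgeR 4.0.16 (R 4.3.3) on UMIs summed per library and type, with TMM scaling, filterByExpr, the quasi-likelihood test, the library as a block and Benjamini-Hochberg adjustment over 9911 genes at 0.05. Cell types of a library come from the same tumors, which pairs them. In counts simulated for macrophages against tumor cells, this test recovered 138 of 200 genes changed 2-fold, with 2 false calls among 8877 genes tested. Alternatives were DESeq2 1.42.0, library sizes alone, no block, other filters, fold rules, scalings and clusterings, no doublets, and leaving out each library. Members and gene lists were chosen with earlier results of these data known. The text names all members and, of each pathway list, at most 6 genes past the rule or test in order of the absolute ratio, with exceptions stated. Genes alike were the 5 with the highest Pearson's r, among genes of at least 10 CPM. Intervals are exact at 95%. Positions and promoters come from GENCODE and RefSeq on GRCm38, and no coordinate was taken to GRCm39.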

Additional observations from a re-analysis of the deposited data

How the results depend on the processing

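For single genes between cell types, 627 of 693 values under the alternatives kept their direction and call, 49 lost their call, 4 gained one and 13 reversed. For RT over NT, 307 of 333 values moved by no more than 1 SD and 26 by more, with 0 reversed among genes past the rule, and by the rule itself 12 calls were lost and 6 gained. For RT over NT, the fold rule of 1 left 0 of the 9 genes in tumor cells, 1 in macrophages and 503, 635 and 634 genes of all in tumor cells, macrophages and monocytes, in place of 1540, 1990 and 2011. With no filter beyond 1 UMI these were 2729, 3617 and 3925, and the mean of each cell's CPM gave 762 in tumor cells. Tumor cells had 0 of the 9 genes past the rule without integration and at resolution 0.4, where monocytes had 5. Without each RT library in turn, 1 to 2 of the 9 genes passed in tumor cells (Irf7 joined without RT1), 5 in macrophages and 3 to 4 in monocytes (Zbp1 joined without RT1, Ddx58 without RT2), and 1844 to 2215, 2364 to 2774 and 2384 to 2754 of all genes. Without cluster 8, 4 of the 9 genes passed in macrophages. With Cxcl10 and Rsad2 left out of the interferon-induced score, chosen after seeing the data, the mean top-range share of RT minus NT moved to -3.41 percentage points in macrophages and reversed to 10.3 in monocytes. The cause was not tested. No paired analysis was possible because NT is 1 library and RT over NT comes from no test.

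For cell types, the library as a replicate block mattered most between monocytes and macrophages, where 3 of the 9 genes and 3034 of all passed without it, in place of 7 and 4878. Without the block, Mavs lost its call against tumor cells in monocytes, lymphocytes, fibroblasts and endothelial cells, Samhd1 in lymphocytes, Tbk1 in endothelial cells and neutrophils, and Irf3 in dendritic cells. Without each library in turn, 4 to 7 of the 9 genes passed in monocytes against macrophages and 4 to 7 in endothelial cells against tumor cells, 4 of them without RT1 in both and without RT2 in the latter. Of all genes 3626 to 5366 passed between monocytes and macrophages, and 1590 to 3163 in neutrophils, the lowest without RT2. Log2 differences reversed for Mavs in macrophages against tumor cells (-0.32 with library sizes alone, -0.0039 with no filter, and -0.046 to 0.096 without each library). Tbk1 reversed in lymphocytes (-0.047 with library sizes alone) and fibroblasts (0.077 with DESeq2), and Ifnb1 in neutrophils (-5.57 to 2.30 without each library, from few UMIs). In monocytes against macrophages, Irf3 reversed with DESeq2 (-0.056), library sizes alone (-0.11), no doublets (-0.30), no integration (-0.059) and without RT3 (-0.10 to 0.12 without each library), and Ifih1 (-0.18) and Irf7 (-0.070) without doublets. The cause was not tested. Library sizes alone lowered the share of higher genes among calls, from 50.9% to 33.3% in monocytes against tumor cells. NT held 20 fibroblasts and 21 neutrophils, so low genes there rest on few UMIs, and these types gave no value without doublets, nor fibroblasts without integration.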
